A study of Mus musculus with 22 samples.

Results

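The vessels of the brain were followed here through 10 marker genes, 8 of endothelial cells (Cldn5, Flt1, Pecam1, Slc2a1, Abcb1a, Vwf, Kdr and Tek) and 2 of pericytes (Pdgfrb and Rgs5). They were taken by name as rows of the count table, and all 10 were found among its 39056 genes, passed the filter on low counts and were among the 14072 genes tested. Prefrontal cortex (PFC) came from 11 male mice, 8 to 12 weeks old, transgenic on a C57BL/6J background. In these mice a CaMKIIα promoter drives the tetracycline transactivator tTA, which switches on a tetO-controlled ribosomal protein fused to EGFP (EGFP-Rpl10a), so that CaMKIIα-expressing cells are the intended source of the tagged ribosomes. Each mouse gave 2 libraries from 1 lysate: TRAP-RNA, pulled down with the tagged ribosomes, and total-RNA, from all cell types of the tissue. The library titles name treatment and pool but no mouse, so the 2 libraries of a mouse were paired by their order. Mouse numbers below follow that order. Control mice received saline (n = 3, mice 1, 4 and 7), EtOH mice received 2 g/kg of ethanol per day (n = 4, mice 2, 5, 8 and 9), and EtOH + ABT-888 mice received the same ethanol with 25 mg/kg of the PARP inhibitor ABT-888 on day 4 (n = 4, mice 3, 6, 10 and 11). Injections were given 2 times a day for 4 days and tissue was collected 2 h after the last one.

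The wall of a brain capillary is a single layer of endothelial cells sealed by tight junctions, the blood-brain barrier, which passes nutrients through dedicated transporters and pumps many drugs back into the blood. Pericytes share the basement membrane with these cells and are held there by platelet-derived growth factor signalling. Endothelial growth and quiescence are set by VEGF, read by Kdr (VEGFR2) and bound by Flt1 (VEGFR1), and by angiopoietins, read by Tek (Tie2). None of the 10 genes is a gene of CaMKIIα neurons, although Slc2a1, the glucose transporter GLUT1, is also made at lower level by astrocytes and other brain cells. Fewer vascular cells in a sample and less RNA per vascular cell cannot be told apart in such libraries.

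Depth was 6570957 to 22002618 counted reads in the TRAP libraries (median 15711482) and 22132534 to 32421392 in total-RNA (median 28734687). Levels below are CPM, read counts scaled to the size of each library after TMM normalisation over all 22 libraries. The markers were shallow in TRAP: Tek had a median of 11 counts per TRAP library and Kdr 13, and both had 0 counts in EtOH + ABT-888 mouse 6, the smallest library, where 0 counts allow a level of up to 0.45 CPM. Slc2a1 had a median of 316 counts. Intervals and floors of this kind cover counting error only. The pull-down of Control mice was checked against its labelled cell type with marker lists: of 6 excitatory neuron markers Nrgn was higher in TRAP (log2 fold change 1.2) and 4 were lower, among them Slc17a7 (−1.13), while Camk2a itself did not differ (−0.17, Benjamini-Hochberg adjusted p = 0.203 by edgeR's quasi-likelihood test). Of 6 interneuron markers 3 were higher, led by Slc32a1 (2.52), and 1 was lower. Among the 14072 genes tested 4148 were higher and 4280 lower. These markers thus did not all follow the label, and the pool is called TRAP below.

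The marker genes lie on 7 chromosomes of mm10, as annotated by GENCODE. Slc2a1 is at chromosome 4, 119108711 to 119137983, and Tek on the same chromosome at 94739289 to 94874976. Flt1, Kdr and Abcb1a lie on chromosome 5, at 147561604 to 147726011, 75932827 to 75978458 and 8660077 to 8748575. Vwf is at chromosome 6, 125546774 to 125686679, Pecam1 at chromosome 11, 106654217 to 106750628, and Cldn5 at chromosome 16, 18776847 to 18778262. The pericyte genes are at chromosome 1, 169655501 to 169695813 (Rgs5), and chromosome 18, 61045150 to 61085061 (Pdgfrb). Slc2a1 shares 105 exonic bases with an antisense gene, Gm12868, and Abcb1a shares 553 with Gm42686 on the opposite strand. The strand setting of the counting is not given in the sources used here, so reads of these stretches cannot be assigned to one strand. Abcb1a also has a close paralog, Abcb1b, with which reads may have been split.

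In total-RNA of Control mice the markers were ordered by level per length, in CPM per kb of exon. Slc2a1 was highest at 14.4 ± 0.623 (SD, n = 3) and Rgs5, a GTPase-activating protein typical of pericytes, followed at 12.8 ± 0.0766. Cldn5, the main tight-junction claudin of brain endothelium, was at 5.16 ± 0.987, and Pdgfrb, the PDGF receptor of pericytes, at 3.65 ± 0.378. Below these, Abcb1a (P-glycoprotein, a drug efflux pump) was at 3.12, Flt1 at 2.07, Pecam1 (an adhesion molecule of endothelial contacts) at 1.73, Tek at 1.55, Kdr at 0.727 and Vwf (von Willebrand factor, a clotting glycoprotein) at 0.511 CPM per kb. The 3 Control values overlapped between neighbours in 4 places, Pdgfrb with Abcb1a, Flt1 with Pecam1, Pecam1 with Tek, and Kdr with Vwf, and these pairs are not ordered beyond their spread. In Control TRAP the same genes stood at the top, Slc2a1 at 4.22, Rgs5 at 1.72 and Cldn5 at 0.728, and Vwf was again last at 0.037 CPM per kb.

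The first question was how much vascular RNA remained in the TRAP libraries. All 10 markers were lower in TRAP than in total-RNA of Control mice, where 30.4% of all genes tested were called lower (Benjamini-Hochberg adjusted p under 0.05, edgeR's quasi-likelihood test). The median log2 fold change of the 10 was −3.15, against 0.02 over all genes tested. The genes were spread around that value, from −1.81 for Slc2a1 to −3.90 for Pdgfrb, and the 3 TRAP values of each gene lay below its 3 total-RNA values.

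Slc2a1 kept the most. It measured 18.2, 12.1 and 14 CPM in the TRAP libraries of Control mice 1, 4 and 7, and 49.9, 53.0 and 48.8 in their total-RNA. All TRAP values were far below all total-RNA values, a 3.5-fold difference (log2 −1.81, SE 0.14, adjusted p = 1.32e-06). The other transporter, Abcb1a, measured 4.80, 0.831 and 0.853 CPM in TRAP against 15.4, 18.5 and 17.4 in total-RNA (log2 −3.24, SE 0.46, adjusted p = 0.000104). Its TRAP level was thus several times higher in mouse 1 than in the other mice.

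Of the junction and adhesion genes, Cldn5 measured 0.854, 1.38 and 0.853 CPM in Control TRAP and 6.11, 8.84 and 6.96 in total-RNA (log2 −2.80, SE 0.29, adjusted p = 8.72e-06). Pecam1 went from 10.2, 12.6 and 9.49 CPM in total-RNA to 1.39, 0.443 and 1.02 in TRAP, with a log2 fold change of −3.61 (SE 0.32, adjusted p = 2.92e-06). Both genes thus had non-overlapping values. Vwf, which endothelial cells store and release into blood, measured 0.427, 0.332 and 1.02 CPM in TRAP and 7.40, 10.6 and 6.65 in total-RNA (log2 −3.74, SE 0.38, adjusted p = 8.31e-06).

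The receptors of the endothelium were as low. Kdr measured 0.534, 0.831 and 0.398 CPM in Control TRAP against 6.86, 7.11 and 5.71 in total-RNA (log2 −3.46, SE 0.31), and Tek 0.320, 0.665 and 1.48 against 7.27, 8.32 and 6.37 (−3.05, SE 0.36). Flt1 measured 4.91, 1.44 and 5.12 CPM in TRAP and 26.8, 33.9 and 23 in total-RNA (−2.93, SE 0.34). Each of these receptors had an adjusted p of 2.76e-05 or less by edgeR's quasi-likelihood test. The pericyte genes behaved alike: Pdgfrb measured 2.24, 1.33 and 0.796 CPM in TRAP against 21.5, 20.8 and 17.6 in total-RNA (−3.90, SE 0.27, adjusted p = 5.26e-07), and Rgs5 13.1, 5.48 and 4.89 against 58.2, 58.3 and 57.6 (−3.00, SE 0.27, adjusted p = 3.67e-06). Rgs5 was nearly the same in the 3 total-RNA libraries, while its TRAP value was highest in mouse 1.

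**Figure D1:**
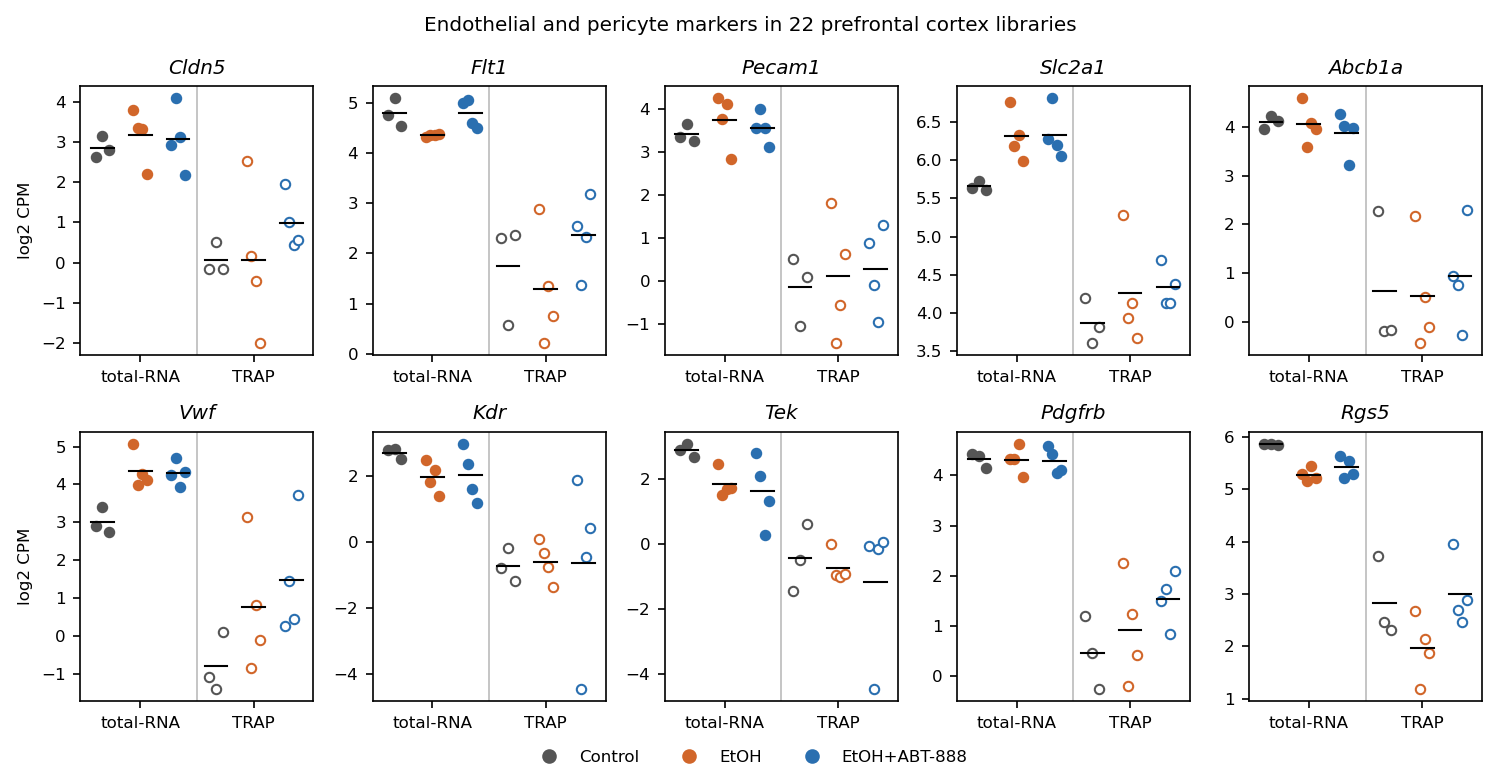
Log2 CPM (prior count 1) of the 10 markers in each of the 22 libraries, with total-RNA as filled and TRAP as open circles and the group mean as a line. Within a treatment, TRAP values lie below total-RNA for every gene apart from overlaps in Cldn5 of EtOH mice and Kdr of EtOH + ABT-888 mice, and the lowest open points of Kdr and Tek are the 0 counts of mouse 6.

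The same comparison within the treated mice gave the same direction. In EtOH mice 10 of 10 markers were lower in TRAP (26.5% of all genes tested), with a median log2 fold change of −2.83 against 0.03 over all genes tested. The genes ranged from −1.97 (Slc2a1) to −3.34 (Pecam1), and only the groups of Cldn5 overlapped (−2.39, SE 0.71, adjusted p = 0.0150). Cldn5 measured 5.75, 1.07, 0.688 and 0.204 CPM in the TRAP libraries of EtOH mice 2, 5, 8 and 9, and 13.8, 10.1, 9.94 and 4.54 in their total-RNA. The TRAP value of mouse 2 thus stood above the total-RNA value of mouse 9, although each mouse's TRAP value was below its own total-RNA value.

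In EtOH + ABT-888 mice 9 of 10 were lower (21.5% of all genes tested), with a median of −2.30 against 0.05. Kdr was the gene not called: it measured 3.61, 0, 0.686 and 1.31 CPM in TRAP of mice 3, 6, 10 and 11, and 7.81, 5.07, 3.02 and 2.21 in total-RNA (log2 −1.65, SE 0.74, adjusted p = 0.0959, edgeR's quasi-likelihood test). With the mouse as a block the difference was −1.83 with an adjusted p of 0.0218, and without the TRAP library of mouse 3 it was −2.59 with 0.0137. Vwf (−2.10, SE 0.65, adjusted p = 0.0219) and Tek (−2.30, SE 0.68, adjusted p = 0.0186) were called with wide errors, and the other 7 lay between −2.01 (Slc2a1) and −3.07 (Pecam1).

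**Figure D2:**
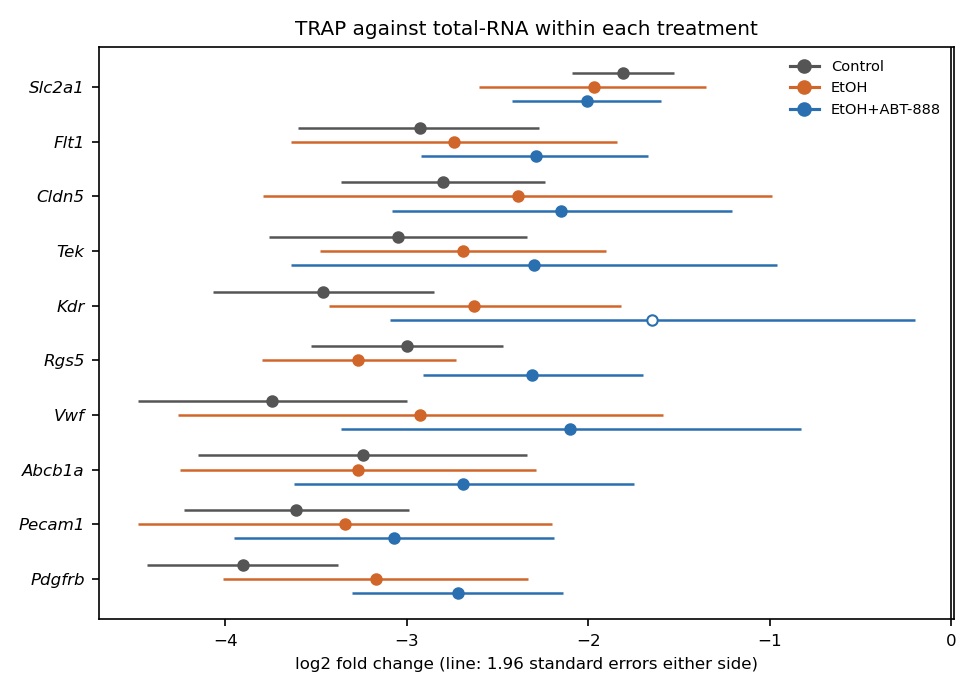
Log2 fold change of TRAP against total-RNA for each marker within Control, EtOH and EtOH + ABT-888 mice, with lines for 95% intervals (normal approximation) and open points where the adjusted p is 0.05 or more. All points are below 0 and the only open one is Kdr in EtOH + ABT-888 mice.

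Per the study's methods both libraries of a mouse come from 1 lysate, and the pairs were inferred from library order. With these pairs, the summed level of the 10 markers was expressed as a share of the same mouse's total-RNA. In Control mice 1, 4 and 7 TRAP held 22.4%, 10.7% and 15.3% of the total-RNA level. EtOH mice 2, 5, 8 and 9 held 28.3%, 11.2%, 13.4% and 12.6%, and EtOH + ABT-888 mice 3, 6, 10 and 11 held 24.8%, 12.8%, 16.8% and 33.1%. The 3 treatments overlapped, and the median of the 11 mice was 15.3%. Slc2a1, the gene of highest level, weighs most in these sums. With the median of the 10 genes' own shares in place of the sum, the median of the mice was 11.5%, with 13.8% in mouse 1, 6.06% in mouse 5 and 31.6% in mouse 11.

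Among the genes, Slc2a1 kept a median of 23.9% over the 11 mice (15.5% to 36.6%) and Flt1 18.3% (4.24% to 40.1%). Tek, Cldn5 and Kdr were at 14.7%, 14% and 13.3%. The lowest medians were those of Pdgfrb (10.4%), Vwf (8.61%, 3.14% to 66.3%) and Abcb1a (8.55%, 4.49% to 31.2%). Vwf thus had among the lowest medians and one of the widest ranges, with its largest share in mouse 11.

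The TRAP libraries of mice 2, 3 and 11 held the largest shares of the summed markers and of each of 3 glial lists: 19.2%, 19.4% and 13.7% of the 7 astrocyte markers (median over mice 8.77%), 27.6%, 23.3% and 18.0% of the 6 microglia markers (median 12.3%) and 30.5%, 29.7% and 50.2% of the 6 oligodendrocyte markers (median 17%). The 5 erythrocyte markers were at 35.1% and 32.5% in mice 2 and 3 (median 17.9%), but at 21.6% in mouse 11, below mouse 6 (22.9%). Control mouse 1 was close to these mice in the vascular markers, with 24.2% of the endothelial markers against 24.7% in mouse 3 and 19.3% of the pericyte markers against 18.8% in mouse 2, and had 11.1% of the astrocyte and 10.8% of the microglia list. Glial markers were thus high where the vascular markers were highest, and blood markers in mice 2 and 3 of these. Their part in the TRAP values was not tested. Without the TRAP libraries of mice 2, 3 and 11, all 10 markers were lower in TRAP in EtOH mice and all 10 in EtOH + ABT-888 mice. In these fits 6892 and 5371 of the 14072 genes were called in either direction. The choice was made after seeing the data. Leaving out the libraries with the largest shares lowers the TRAP values, so this outcome gives no support.

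**Figure D3:**
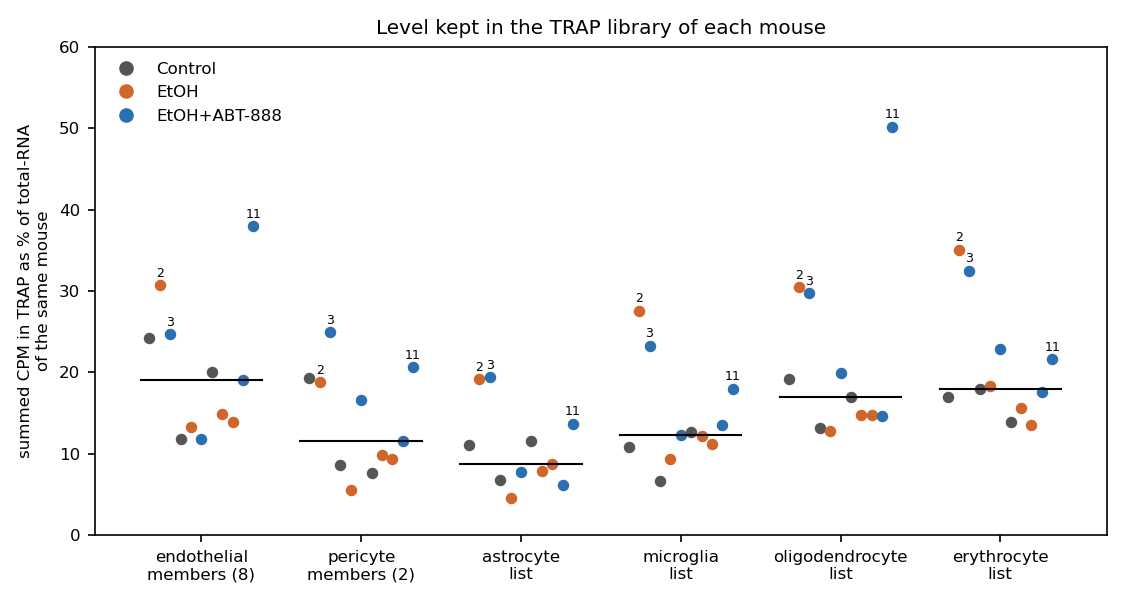
Summed CPM of the 8 endothelial markers, the 2 pericyte markers and 4 lists of other cell types in the TRAP library of each mouse, as a percentage of its total-RNA library, coloured by treatment and with the median of 11 mice as a line. The points of mice 2, 3 and 11 are numbered and are the 3 highest in the astrocyte, microglia and oligodendrocyte lists.

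Other vascular genes were examined from 7 lists. In Control mice, where 30.4% of all genes tested were lower, TRAP was lower for 10 of 14 tested VEGF, angiopoietin and PDGF genes, 10 of 13 junction genes, 12 of 15 barrier transporter and caveola genes, 14 of 17 endothelial regulators, 9 of 13 genes of barrier Wnt signalling, 10 of 12 pericyte and smooth muscle genes and 6 of 6 vascular fibroblast genes. The list medians ran from −1.12 (Wnt) to −3.36 (fibroblast) on the log2 scale. By summed CPM, TRAP held a median over mice of 52.5% (VEGF), 59.2% (junction), 54.7% (transporters), 84.1% (regulators) and 89% (Wnt) of total-RNA. The pericyte and smooth muscle list was at 27.8% and the fibroblast list at 10.1%, against 19% for the endothelial and 11.5% for the pericyte markers. Most lists thus kept more in TRAP than the 10 markers. Cdh5, the cadherin of endothelial junctions, was at −4.70, Ptprb, a phosphatase that restrains Tek, at −3.2, Vtn, a pericyte-rich adhesion protein, at −3.88, and Dcn, a matrix proteoglycan, at −4.65.

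A few genes of these lists were higher in TRAP than in total-RNA of Control mice. They were Plvap, a protein of fenestral diaphragms (log2 1.22, SE 0.19), Tagln, an actin-binding protein of smooth muscle (2.25, SE 0.30), the claudin Cldn12 (0.90, SE 0.12) and the adhesion molecule Esam (0.62, SE 0.25, adjusted p = 0.0469 by edgeR's quasi-likelihood test). In EtOH mice Plvap was also higher (1.12, SE 0.23). Cldn12, Cgnl1 (a cytoplasmic tight-junction protein), the glycoprotein Bsg and the ligand Wnt7a were higher in TRAP in both treated groups, Cgnl1 at 1.38 (SE 0.24) in EtOH and 1.33 (SE 0.30) in EtOH + ABT-888 mice.

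The genes whose pattern over the 22 libraries was nearest to the mean of the 10 markers were looked for among 10981 genes, by the root mean square difference of centred log2 CPM. They were Gpr37l1 (0.278), Daam2 (0.298), Plekhb1 (0.306), Aldoc (0.320) and Litaf (0.320). Gpr37l1 and Aldoc are best known from astrocytes. The markers themselves differed from their own mean by 0.399 (Flt1) to 0.966 (Vwf), so all 5 lay nearer to it than any single marker.

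The next comparison asked what 4 days of ethanol did to vascular RNA in the whole tissue. In total-RNA, 5 of 10 markers differed between EtOH and Control mice, 2 higher (Vwf and Slc2a1) and 3 lower (Tek, Rgs5 and Flt1), where 17.6% of all genes tested were called, 9.04% higher and 8.60% lower (edgeR's quasi-likelihood test, Benjamini-Hochberg adjusted p under 0.05). The markers thus did not move together, and their median log2 fold change was 0.00, as over all genes tested.

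Vwf rose the most. It measured 7.40, 10.6 and 6.65 CPM in Control total-RNA and 33.4, 15.9, 19.2 and 17.3 in EtOH mice 2, 5, 8 and 9. Every EtOH value was above every Control value, a 2.62-fold difference (log2 1.39, SE 0.25, adjusted p = 0.00384). Slc2a1 rose from 49.9, 53.0 and 48.8 CPM to 109, 73.1, 80.1 and 63.4, again without overlap (1.61-fold, log2 0.69, SE 0.16, adjusted p = 0.0110). Mouse 2 had the highest value of both genes.

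Tek fell from 7.27, 8.32 and 6.37 CPM to 5.45, 2.77, 3.14 and 3.24, all EtOH values lying below all Control values (log2 −0.99, SE 0.24, adjusted p = 0.0139). Flt1 fell from 26.8, 33.9 and 23 CPM to 19.8, 20.4, 20.4 and 20.7 (log2 −0.45, SE 0.14, adjusted p = 0.0387). The 4 EtOH values of Flt1 were almost the same and the Control values were not. Kdr measured 6.86, 7.11 and 5.71 CPM in Control and 5.57, 3.47, 4.48 and 2.56 in EtOH, without overlap, but did not pass edgeR's quasi-likelihood test (log2 −0.70, SE 0.24, adjusted p = 0.0618). It was called lower by exactTest (adjusted p = 0.0319), by DESeq2 (0.0339) and by edgeR's quasi-likelihood test with no filter (0.0185).

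Of the pericyte genes, Rgs5 fell from 58.2, 58.3 and 57.6 CPM to 39.4, 35.5, 43.5 and 37.1, 1.49-fold lower with no overlap (log2 −0.58, SE 0.11, adjusted p = 0.00390). Pdgfrb measured 21.5, 20.8 and 17.6 CPM in Control and 19.9, 19.9, 24.5 and 15.5 in EtOH (log2 0.00, SE 0.16, adjusted p = 0.996). The 2 pericyte markers thus gave different values, and the difference between them was not tested.

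Of the other endothelial markers, Cldn5, Pecam1 and Abcb1a did not pass edgeR's quasi-likelihood test. Cldn5 measured 6.11, 8.84 and 6.96 CPM in Control and 13.8, 10.1, 9.94 and 4.54 in EtOH (log2 0.40, SE 0.28), Pecam1 was at 0.41 (SE 0.26) and Abcb1a at 0.00 (SE 0.20). EtOH mouse 9 had the lowest and mouse 2 the highest value of Cldn5, and the same held for Pecam1, at 7.11 and 19 CPM. Without the library of mouse 9 both were called higher by that test, Cldn5 at 0.63 (adjusted p = 0.0332) and Pecam1 at 0.62 (adjusted p = 0.0198). All genes called rose from 2482 to 3616 in that fit.

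**Figure D4:**
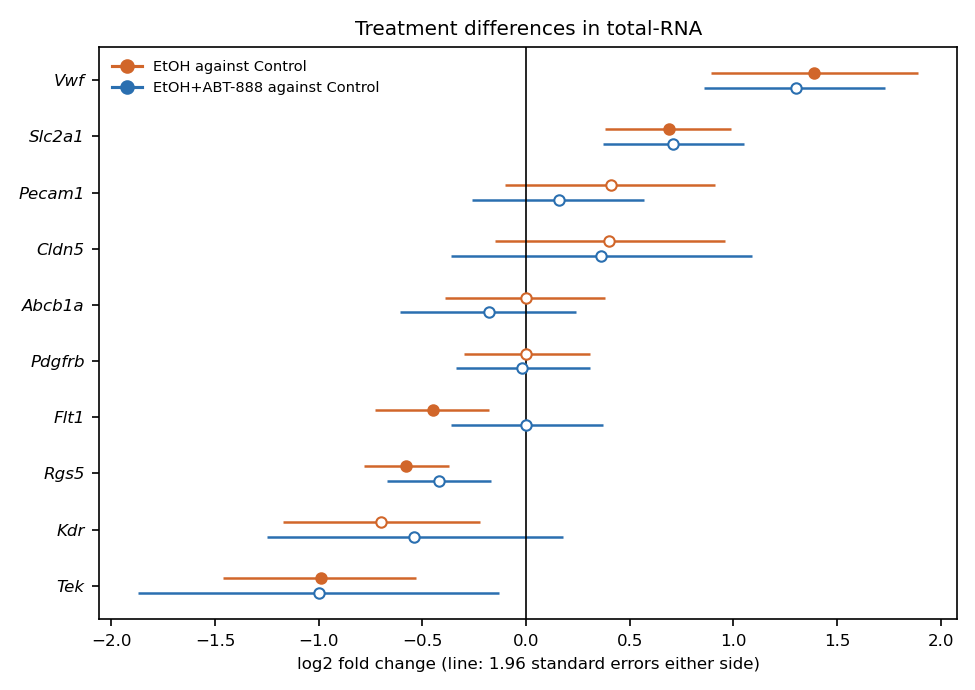
Log2 fold change of each marker in total-RNA of EtOH and of EtOH + ABT-888 mice against the same Control mice, with lines for 95% intervals (normal approximation) and filled points where the adjusted p is under 0.05. Vwf and Slc2a1 are to the right of 0 and Rgs5 and Tek to the left in both, and only 5 points of EtOH are filled.

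These calls differed in firmness. All genes called also fell, from 2482 to 943, 878 and 1226 without Control mouse 1, 4 or 7. Vwf and Rgs5 passed in each of the 7 fits that left out 1 library (largest adjusted p 0.0271 and 0.0269), Slc2a1 was lost without Control mouse 1 (0.0519) or 7 (0.0503), Tek without Control mouse 1 (0.0523) or 4 (0.0779), and Flt1 in 5 of 7 fits, without Control mouse 1 (0.105) or 4 (0.229) or EtOH mouse 2 (0.0766), 5 (0.0659) or 8 (0.0618). None of the 10 was called when all 22 libraries shared one fit and one estimate of the spread (adjusted p of Vwf 0.345 and of Rgs5 0.379, edgeR's quasi-likelihood test), although their log2 fold changes moved by at most 0.01.

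For 4 of the 5 called genes the RefSeq promoter table of GRCm38.p6 holds an entry, and the 200 bases before the gene start are given so that the genes that moved in opposite directions can be set side by side. Slc2a1, which rose, is at chr4:119108511-119108710 (plus strand). Flt1, Tek and Rgs5, which fell, are at chr5:147726012-147726211 (minus strand), chr4:94739089-94739288 (plus strand) and chr1:169655301-169655500 (plus strand). Capitals mark GC boxes (GGGCGG) on either strand.
Slc2a1: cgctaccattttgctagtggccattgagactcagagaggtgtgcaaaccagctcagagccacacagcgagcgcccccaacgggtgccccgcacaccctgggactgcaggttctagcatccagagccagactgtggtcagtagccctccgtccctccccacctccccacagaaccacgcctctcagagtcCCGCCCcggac
Flt1: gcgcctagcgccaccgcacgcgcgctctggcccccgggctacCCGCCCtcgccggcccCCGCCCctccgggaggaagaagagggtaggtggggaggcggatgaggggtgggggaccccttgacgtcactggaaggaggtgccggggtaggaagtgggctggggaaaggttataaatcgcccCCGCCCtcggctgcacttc
Tek: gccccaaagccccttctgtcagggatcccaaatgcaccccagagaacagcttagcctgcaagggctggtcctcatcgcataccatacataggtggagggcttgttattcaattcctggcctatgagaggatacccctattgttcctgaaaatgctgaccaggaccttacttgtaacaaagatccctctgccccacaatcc
Rgs5: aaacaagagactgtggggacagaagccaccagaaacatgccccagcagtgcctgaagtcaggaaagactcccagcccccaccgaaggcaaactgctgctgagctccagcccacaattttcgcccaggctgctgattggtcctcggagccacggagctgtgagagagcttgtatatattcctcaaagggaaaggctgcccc
In these windows Flt1 held 3 GC boxes and Slc2a1 1, while Tek and Rgs5 held none. In the 250 bases before the RefSeq start, which for Slc2a1 lies downstream of the GENCODE start that ends its window, Slc2a1 held 2, and the other counts were the same. Of all 32851 promoters 32.7% hold at least 1 in those 250 bases. For the ETS factors that endothelial genes use widely, only the exact string CCGGAA was searched. It was in none of the 4 windows of 200 bases, and in 12% of all promoters over 250 bases. Other forms of the ETS site were not searched, so their presence in these windows was not tested. Kdr and Cldn5 have entries too, Vwf, Pecam1 and Pdgfrb were not matched, and the entry of Abcb1a starts far from the GENCODE start and was not used.

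In EtOH + ABT-888 mice, compared with the same Control mice, 0 of 10 markers passed in total-RNA, where 0.263% of all genes tested were called (edgeR's quasi-likelihood test), and 4 were under an unadjusted p of 0.05, as were 15.9% of all genes. exactTest and DESeq2 each called 2, Vwf and Slc2a1. Vwf measured 19.1, 26.1, 15.3 and 19.9 CPM in mice 3, 6, 10 and 11, all above the Control values (log2 1.30, SE 0.22, adjusted p = 0.0501). Slc2a1 measured 77.7, 112, 73.3 and 66.4 CPM, also all above Control (log2 0.71, SE 0.17, adjusted p = 0.107). The fold changes of these genes were close to those in EtOH mice and fell on the other side of the threshold.

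Rgs5 measured 50.1, 37.4, 46.4 and 39.1 CPM with ABT-888, all below Control (log2 −0.42, SE 0.13, adjusted p = 0.159). Tek measured 6.89, 4.16, 1.16 and 2.44 CPM (log2 −1, SE 0.45, adjusted p = 0.306), and its value in mouse 3 was within the Control range. Flt1 measured 31.8, 33.3, 24.2 and 22.4 CPM, with a log2 fold change of 0.00 (SE 0.18). Without the total-RNA library of mouse 10 Vwf was called (1.40, adjusted p = 0.0135), and without that of mouse 3, 4 markers were called: Vwf (1.32, adjusted p = 0.0149), Slc2a1 (0.74, 0.0445), Tek (−1.50, 0.0450) and Rgs5 (−0.50, 0.0414), by edgeR's quasi-likelihood test. All genes called also rose, from 37 to 204 without mouse 10 and to 870 without mouse 3.

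Set directly against EtOH mice in total-RNA, EtOH + ABT-888 mice differed in 0 of 10 markers and in 0 of the 14072 genes (0% called), with 269 genes, 1.91%, under an unadjusted p of 0.05. exactTest and DESeq2 also called 0 markers. Flt1 was the only marker under an unadjusted 0.05 in edgeR's quasi-likelihood test: its 4 values with ABT-888, 22.4 to 33.3 CPM, were all above the 4 EtOH values, 19.8 to 20.7 CPM (log2 0.46, SE 0.15, adjusted p = 1 by edgeR). For Vwf the difference was −0.10 with a 95% interval (normal approximation) from −0.56 to 0.37, and for Tek 0.00 with an interval from −0.85 to 0.85.

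Within TRAP, 0 of 10 markers differed between EtOH and Control mice (5.24% of all genes tested called) or between EtOH + ABT-888 and Control mice (0.476% called), by edgeR's quasi-likelihood test. Vwf was the only one under an unadjusted 0.05 in each, against 23.1% and 12.1% of all genes. It measured 0.427, 0.332 and 1.02 CPM in Control TRAP, 8.73, 0.511, 1.72 and 0.884 in EtOH mice 2, 5, 8 and 9, and 1.15, 2.70, 1.32 and 13.2 in EtOH + ABT-888 mice 3, 6, 10 and 11. A single library was far above the rest in each treated group, that of mouse 2 and that of mouse 11.

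The log2 fold change of Vwf in TRAP was 2.24 (SE 0.92, adjusted p = 0.169) with EtOH and 2.93 (SE 0.90, adjusted p = 0.203) with EtOH + ABT-888. Without the library of mouse 2 the first fell to 0.80, and without that of mouse 11 the second fell to 1.49. DESeq2 called Vwf in the second comparison and not in the first (adjusted p = 0.0176 and 0.0599), and exactTest in neither. EtOH + ABT-888 against EtOH in TRAP called 0 markers and 0 genes (136 genes, 0.966%, under an unadjusted 0.05), with exactTest and DESeq2 also at 0 markers, and Rgs5 was the only marker under an unadjusted 0.05 (log2 1.08, SE 0.41, adjusted p = 1 by edgeR).

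Whether a treatment changed TRAP differently from total-RNA was tested as an interaction over all 22 libraries. None of the 10 markers was called with EtOH (0.0213% of all genes tested) or with EtOH + ABT-888 (0% called), none was under an unadjusted 0.05 (4.87% and 3.38% of all genes were), and the likelihood ratio test called 0 as well. The closest were Kdr (log2 1.81, SE 0.88) and Pdgfrb (1.13, SE 0.58) with EtOH + ABT-888 in edgeR's quasi-likelihood test across all genes, both with an adjusted p of 1. The standard errors ran from 0.40 to 1.15 on the log2 scale.

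The 7 vascular lists were then counted in total-RNA of EtOH against Control mice, where 9.04% of all genes tested were called higher and 8.6% lower, 17.6% in all. The lists are short and were not tested as lists, so each count is a description to be read against these shares. Of 14 tested ligands and co-receptors 3 fell and none rose: Vegfa, the main endothelial growth factor (log2 −0.74, SE 0.14, adjusted p = 0.00422), its co-receptor Nrp1 (−0.86, SE 0.22) and Ptprb (−0.68, SE 0.19). The list median was −0.09. Wnt7b, a ligand that maintains the barrier, fell (−0.62, SE 0.16) and its receptor Fzd4 rose (0.59, SE 0.17). These were 2 of 13 genes of barrier Wnt signalling, a share no higher than the 17.6% of all genes, and the list median was −0.14.

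Of 15 barrier transporter and caveola genes 3 rose and 2 fell, with a median of 0.19. Plvap rose from 3.66 to 6.76 ± 0.920 CPM (SD, n = 4; log2 0.89, SE 0.19), the transferrin receptor Tfrc from 139 to 209 ± 37.1 (0.59, SE 0.13), and the lipid transporter Mfsd2a was 0.92 higher. Slco1c1, a thyroid hormone transporter, fell from 24.7 to 10.1 ± 4.59 CPM (−1.29, SE 0.28), and the caveolar protein Cav1 fell by 0.67 on the log2 scale. Of 13 junction genes only Cgnl1 was called, at 0.76 higher (SE 0.21), again a share below that of all genes, and the median was −0.19.

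Of 17 endothelial regulators 2 rose and 3 fell, with a median of 0.39. Ctla2a, a protease inhibitor that brain endothelium expresses, rose from 2.30 ± 1.06 (SD, n = 3) to 21.8 ± 9.37 CPM (n = 4; log2 3.27, SE 0.40, adjusted p = 0.000503 by edgeR's quasi-likelihood test). Klf2, a transcription factor induced by blood flow, rose from 1.67 to 4.11 ± 1.00 CPM (1.29, SE 0.26). The sphingosine-1-phosphate receptor S1pr1 (−0.47, SE 0.10), Itm2a (−0.74, SE 0.18) and the ETS factor Ets1 (−0.60, SE 0.18) fell.

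Of 12 pericyte and smooth muscle genes 4 fell and none rose, with a median of −0.33. They were the aminopeptidase Anpep (−1.25, SE 0.28), the transporter Atp13a5 (−0.89, SE 0.21), endosialin Cd248 (−1.10, SE 0.27) and the potassium channel subunit Abcc9 (−0.57). Of 6 vascular fibroblast genes 3 collagens fell, Col1a1 (−2.30, SE 0.39), Col1a2 (−0.76, SE 0.20) and Col3a1 (−1.21, SE 0.33).

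**Figure D5:**
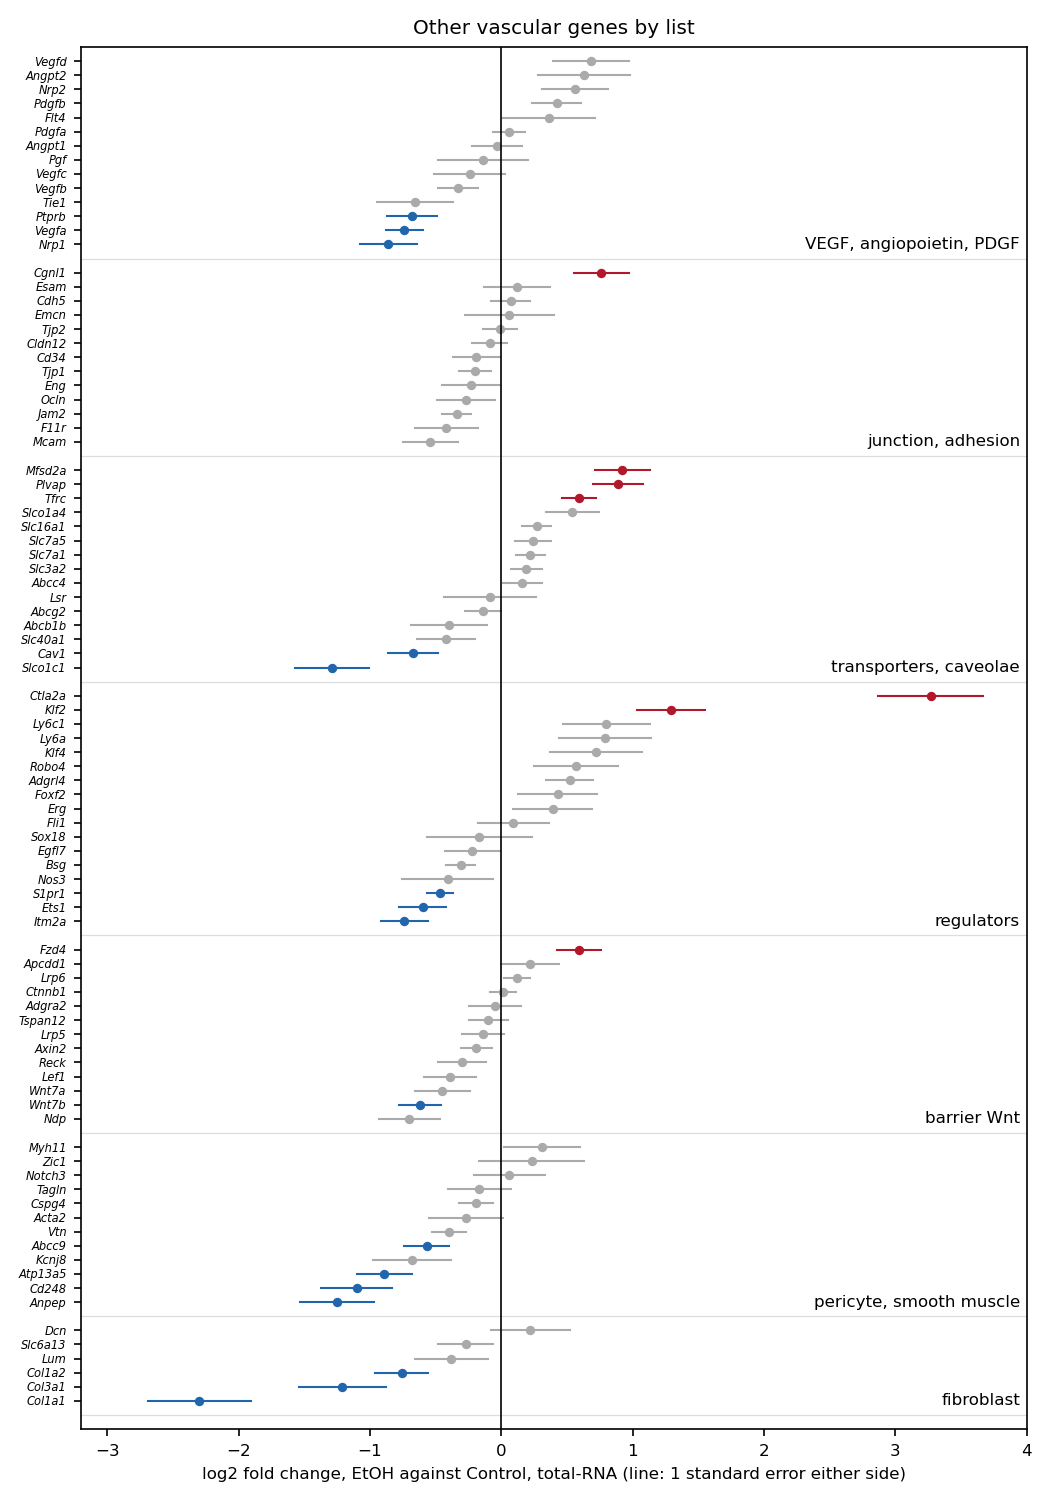
Log2 fold change of EtOH against Control in total-RNA for the tested genes of 7 vascular lists, with lines of 1 standard error either side, red where higher and blue where lower at an adjusted p under 0.05. The pericyte and smooth muscle, fibroblast and VEGF lists hold blue points and no red ones, and Ctla2a is the point farthest to the right.

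Markers of other cells also differed between these total-RNA groups. Of 6 microglia markers 5 fell with EtOH, Cx3cr1 (−2.47), P2ry12 (−2.35) and Tmem119 (−1.53) among them, and the summed level of the list was 330 to 337 CPM in Control and 130 to 191 in EtOH. The summed astrocyte level was 1060 to 1140 CPM in Control and 1080 to 1260 in EtOH, with 2 of 7 markers higher and 1 lower, and the oligodendrocyte level 2290 to 2560 and 2160 to 2750, with 1 of 6 higher. None of 5 erythrocyte markers was called, at 61.9 to 115 and 53.6 to 117 CPM. The part of these shifts in the vascular differences was not tested.

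Within TRAP, 4 of the 90 tested genes of the 7 vascular lists were called with EtOH, 4.44%, no higher than the 5.24% of all genes tested. Cgnl1 rose from 5.31 to 25.6 ± 7.61 CPM (log2 2.31, SE 0.28, adjusted p = 0.00251), Tfrc rose by 0.75 on the log2 scale, and Tagln fell from 14.2 to 2.27 ± 2.81 CPM (−2.59, SE 0.65), by edgeR's quasi-likelihood test. Ctla2a was also called higher, at 1.97 ± 1.24 CPM (SD, n = 4) with EtOH. Its Control mean lay below the 0.166 to 0.32 CPM that 3 counts are worth in those libraries, so no fold is given. Markers of other cells moved in the same comparison: Neurod6, a transcription factor of excitatory neurons (−1.68, SE 0.30), and P2ry12, a microglial receptor (−3.46, SE 0.61), were called lower, and the median of the 6 excitatory markers was −0.84. Their part in the vascular values was not tested. With EtOH + ABT-888, where 0.476% of all genes tested were called (67 genes, and 420 with DESeq2), Cgnl1 was at 24.5 ± 10.5 CPM (2.24, SE 0.36, adjusted p = 0.0277 by edgeR's quasi-likelihood test). The numbers of calls in the 2 treatments were not compared.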

How the data were processed

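Per the labels and the study's methods, RNA of 22 libraries (TRAP and total-RNA of 11 mice) was depleted of ribosomal RNA, made into libraries with a CORALL kit and sequenced in 50-base read pairs. The authors aligned reads to mm10 with STAR and counted them per Ensembl gene with featureCounts; the deposited values are raw read counts. Versions, the strand setting and the treatment of multimapped reads are not given in the sources used here.

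Genes with at least 500 counts in all and a count in at least 3 libraries were kept (14072; 24984 removed). Each comparison was fitted on its own libraries with TMM scaling and edgeR's quasi-likelihood test (R 4.3.3, edgeR 4.0.16, limma 3.58.1), with p-values adjusted over all kept genes by Benjamini-Hochberg and called under 0.05. DESeq2 1.42.0, exactTest, RLE factors, no filter, 1 fit over 22 libraries, a threshold of 0.01, a mouse block and leaving out each library were alternatives. The fit was also run on simulated data, and no result above rests on that run. Symbols came from GENCODE (38872 of 39056 genes found). Besides the 10 markers, up to 3 called genes per list and comparison with the smallest p were named, any called against the direction of most of its list, and the 5 genes of nearest pattern. Mfsd2a, Abcc9 and Camk2a lie outside this rule and were added after their values were seen. Markers and lists were chosen with earlier results of these data known. Libraries of 1 mouse share a lysate, but the titles do not name the mouse and the pairs were inferred from library order. The correlations of the paired libraries' deviations from the group means were 0.102 to 0.622. Other pairings were not compared. Each mouse was 1 replicate.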

Additional observations from a re-analysis of the deposited data

Results flagged for a closer look

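In 40 groups of 4 libraries, 5 held a library far from the others, where chance gives about 1 in 20 for normally distributed values. In TRAP of EtOH mice the library of mouse 2 was highest for Cldn5 at 5.75 CPM (the next was 1.07), for Vwf at 8.73 CPM (next 1.72) and for Tek at 0.946 CPM (next 0.476). For Tek this was 13 counts in mouse 2 against 10, 9 and 7 in mice 5, 8 and 9, so that flag rests on few counts. In TRAP of EtOH + ABT-888 mice the library of mouse 11 was highest for Vwf at 13.2 CPM (next 2.70), and that of mouse 6 was lowest for Tek at 0.0 CPM (next 0.844), where 0 counts allow up to 0.45 CPM.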

How the results depend on the processing

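Markers lower in TRAP numbered 10 in Control and in EtOH mice whichever library was left out, and 8 to 10 in EtOH + ABT-888 mice. The mouse block brought Kdr in EtOH + ABT-888 mice to −1.83 (adjusted p = 0.0218), making 10 of 10, and changed no other call of a marker. In total-RNA of EtOH against Control mice the count of 5 became 0 with 1 fit over 22 libraries, 2 at an adjusted p under 0.01, 6 with exactTest, with DESeq2 and with no filter (Kdr added), and 2 to 7 when a library was left out (2 without Control mouse 1, 3 without Control mouse 4, 7 without EtOH mouse 9). All genes called there numbered 2482, and 151 in the fit over 22 libraries. They numbered 943 without Control mouse 1, 878 without Control mouse 4 and 3616 without EtOH mouse 9. In total-RNA of EtOH + ABT-888 against Control mice the count of 0 became 2 with exactTest, 2 with DESeq2, 2 with no filter, 1 with RLE factors and 0 to 4 when a library was left out. All genes called there were 37, 544 with exactTest, 621 with DESeq2 and 870 without EtOH + ABT-888 mouse 3. Cldn5 there, not called, was at 0.36 and ranged from −0.09 (without EtOH + ABT-888 mouse 6) to 0.60 when a library was left out. In TRAP against Control the count of 0 became 1 (Vwf) with no filter for EtOH, and 1 with DESeq2 and 1 with no filter for EtOH + ABT-888. All genes called in TRAP were 737 for EtOH, 1523 with DESeq2, and 67 for EtOH + ABT-888, 420 with DESeq2. The cause of these shifts was not tested. Kdr and Tek had few counts in TRAP, with medians of 13 and 11 per library.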
